A study of Mus musculus with 12 samples.

Results

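The aryl hydrocarbon receptor (AhR) is a cytosolic transcription factor that binds dietary, microbial and endogenous ligands, enters the nucleus and pairs there with ARNT. The pair switches on genes such as Cyp1a1, Cyp1b1, Tiparp and Ahrr, the last of which encodes a repressor that limits the receptor. Kynurenine, a product of tryptophan breakdown by the IDO enzymes, is one of its ligands, and KMO and kynureninase (Kynu) carry kynurenine further down the pathway. The intestine is rich in both tryptophan catabolites and AhR ligands, and dendritic cells (DCs) express receptor and enzymes. The data below describe the mRNA of 10 genes of this system: Ahr, its partner Arnt, its repressor Ahrr, its targets Tiparp and Cyp1b1, the tryptophan dioxygenases Ido1 and Ido2, Kmo, Kynu, and Il4i1, a secreted oxidase of aromatic amino acids. They were taken by symbol from the mouse annotation and make up 10 of the 53801 gene identifiers counted in each sample.

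RNA was sequenced from DCs sorted from the gut of wild-type (WT) mice and of Cbfb-deficient mice (Cbfb F/F: CD11c-Cre, here cKO), all of mixed background. CBFb is the partner that RUNX transcription factors need to bind DNA firmly, and the CD11c promoter drives Cre in DCs but also in some other leukocytes. From each genotype, CD103+CD11b- DCs and CD103-CD11b+ DCs were sorted, with 3 samples in each of the 4 groups and 12 samples in all. The comparisons ask what loss of CBFb does to either subset. The labels call the controls wild type without naming a Cre transgene, and they give no age. Per the study, the 3 samples of a group came from different mice. Gut DCs were defined there by the gate CD45+CD64-CD11c+MHC-II+, which leaves out CD45- stromal and epithelial cells, CD64+ macrophages, and T cells that lack CD11c or MHC-II.

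Gene counts ranged from 2161929 to 5863484 per sample. The pan-DC genes Flt3, Zbtb46, Itgax, Cd74, H2-Aa and H2-Ab1 were detected in every group, and 7 of 8 markers of type 1 conventional DCs were lower in the CD103-CD11b+ DCs than in the CD103+CD11b- DCs in either genotype. The 8 markers include Itgae, which encodes CD103, a protein the cells were sorted on. Genes of other cells were detected as well. The summed level of 8 macrophage genes lay between 159 and 491 CPM (read counts brought to a common library size) in the CD103-CD11b+ samples against 13.8 to 58.3 CPM in the CD103+CD11b- samples. These are bulk samples, in which fewer cells of a type cannot be told apart from less RNA per cell.

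The AhR-ARNT pair recognises the letters GCGTG, and the promoters of its 3 targets among the 10 genes are shown for that reason. Each is the 300 bases from 250 before to 50 after the annotated RefSeq start in GRCm38.p6, written in the direction of the gene, with GCGTG, or CACGC where it lies on the other strand, in capitals. The windows are chr13:74292282-74292581 (minus strand) for Ahrr, chr17:79715012-79715311 (minus strand) for Cyp1b1 and chr3:65528197-65528496 (plus strand) for Tiparp.
Ahrr: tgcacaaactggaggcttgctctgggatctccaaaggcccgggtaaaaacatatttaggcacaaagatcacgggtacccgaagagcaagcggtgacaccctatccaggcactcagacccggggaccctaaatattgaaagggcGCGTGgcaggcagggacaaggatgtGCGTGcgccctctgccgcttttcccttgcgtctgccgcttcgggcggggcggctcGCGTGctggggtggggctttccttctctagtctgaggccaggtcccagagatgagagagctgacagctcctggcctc
Cyp1b1: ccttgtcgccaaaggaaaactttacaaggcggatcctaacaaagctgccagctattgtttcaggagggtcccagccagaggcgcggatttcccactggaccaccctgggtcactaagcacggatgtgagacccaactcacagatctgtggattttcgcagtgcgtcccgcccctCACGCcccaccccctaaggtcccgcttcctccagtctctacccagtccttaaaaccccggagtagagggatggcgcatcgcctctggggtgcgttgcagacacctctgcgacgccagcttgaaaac
Tiparp: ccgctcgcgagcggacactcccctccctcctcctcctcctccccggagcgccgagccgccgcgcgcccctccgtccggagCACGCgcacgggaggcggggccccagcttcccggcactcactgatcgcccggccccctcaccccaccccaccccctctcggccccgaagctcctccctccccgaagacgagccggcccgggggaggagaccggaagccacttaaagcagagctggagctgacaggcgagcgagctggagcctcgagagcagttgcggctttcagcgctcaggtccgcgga
The Ahrr window held 3 matches, at positions -107, -82 and -27 from the start, all on the strand of the gene. The Cyp1b1 window held 1 match at -76 and the Tiparp window 1 match at -170, both on the opposite strand. Windows were found for 6 of the 10 genes, the others being Arnt (1 match, at -29), Kmo and Il4i1 (no match). Of all 32851 promoter windows of this length, 32.4% held GCGTG on either strand and 3.91% held 3 or more matches. The RUNX letters TGTGGT or TGCGGT, present in 22.4% of all windows, were in none of these 6. Such matches are letters in a window and not shown binding sites.

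Levels differed widely among the genes. Per kilobase of exon, Ahr was the most abundant with a mean of 89.9 CPM per kb over the 12 samples. Kmo followed with 52.4, Tiparp with 35.3, Kynu with 30.9 and Arnt with 20.0 CPM per kb. Ahrr reached 6.20, Cyp1b1 3.46 and Ido1 3.04 CPM per kb. The order was not the same in every group. In WT CD103+CD11b- DCs Kynu was above Tiparp (36.4 against 25.0 CPM per kb), and Ido1 and Ido2 (2.28 and 0.224) were above Cyp1b1 (0.212). In cKO CD103+CD11b- DCs Kynu (35.8) was above Kmo (35.2) and Tiparp (27.2). In WT CD103-CD11b+ DCs Arnt was above Kynu (19.9 against 19.1) and Cyp1b1 above Ahrr (7.86 against 5.16), and in cKO CD103-CD11b+ DCs Tiparp was above Kmo (53.9 against 52.3). Several of these margins lay within the SD of the 3 samples. They were Ido2 over Cyp1b1 (SD of Ido2 0.168, from 9 reads in all), Kynu over Kmo (SD of Kynu 5.73) and Arnt over Kynu (SD of Kynu 7.12). Cyp1b1 over Ahrr (SD of Cyp1b1 9.35) and Tiparp over Kmo (SD of Tiparp 23.3) were others. The levels of Kmo and Kynu were thus above those of Ido1 and Ido2 in every group. Ido2 lay at 0.129 CPM per kb, and no level is given for Il4i1, most of whose exons are shared with other genes.

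**Figure D1:**
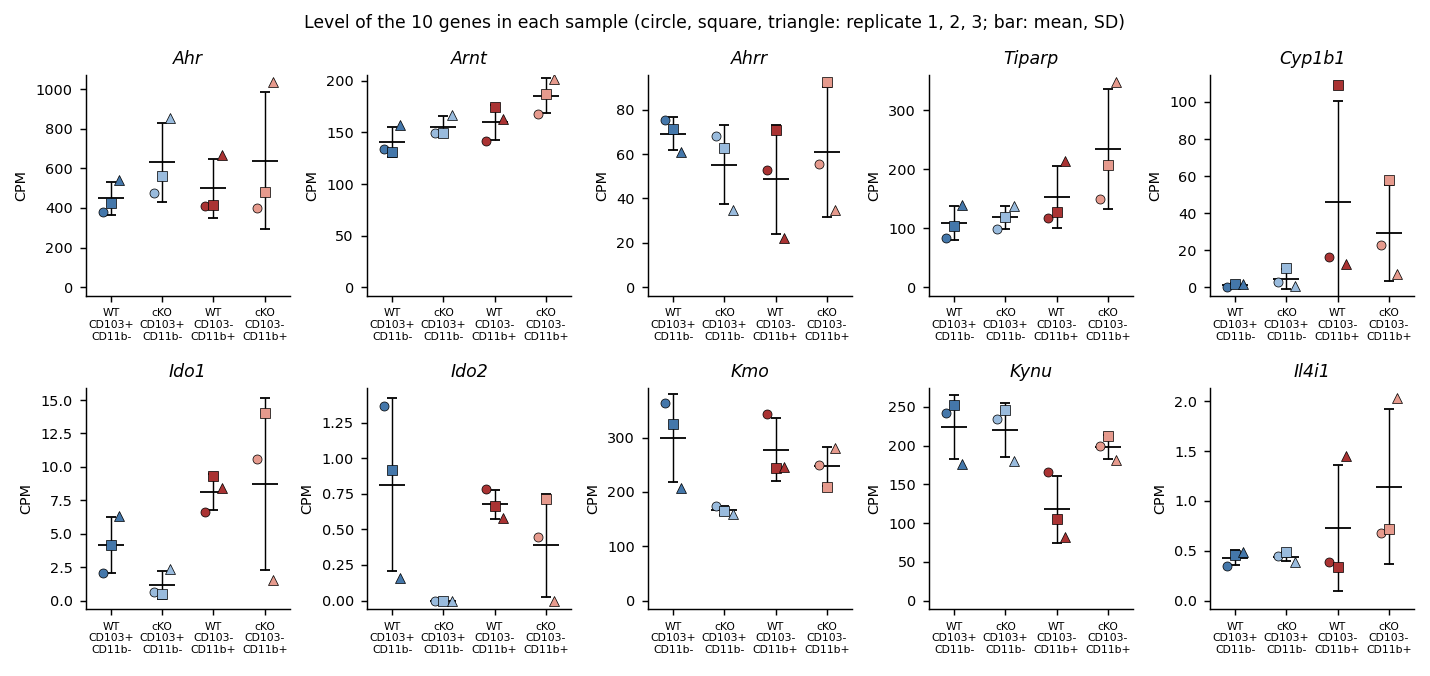
Each panel plots the CPM of 1 gene in the 12 samples on its own linear axis, by group, with circles, squares and triangles for replicates 1, 2 and 3 and a bar for the mean and SD of the 3 samples. Kmo sits between 159 and 175 CPM in the cKO CD103+CD11b- DCs and above that in all other samples, and Kynu is lowest in the WT CD103-CD11b+ DCs.

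Ahr, the receptor (chromosome 12, 35497974 to 35535038, minus strand, GRCm38), was well counted, with 1104 to 3336 reads per sample. In WT CD103+CD11b- DCs its level was 378, 427 and 539 CPM in replicates 1, 2 and 3, and in the cKO cells of this subset it was 474, 564 and 855 CPM. In WT CD103-CD11b+ DCs it was 412, 416 and 670 CPM, and in the cKO cells 402, 478 and 1037 CPM. The ranges of the 4 groups overlapped, and within each group the sample numbered 3 was the highest. With edgeR's quasi-likelihood test and Benjamini-Hochberg adjustment, the difference cKO minus WT on the log2 scale was 0.49 (SE 0.36, adjusted p = 0.764) in CD103+CD11b- DCs and 0.35 (SE 0.36, adjusted p = 0.640) in CD103-CD11b+ DCs. Between the subsets the difference was 0.16 (adjusted p = 0.806) in WT and 0.02 (adjusted p = 0.988) in cKO mice. The latter became -0.52 when the cKO CD103-CD11b+ sample numbered 3 was left out.

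Arnt, the DNA-binding partner (chromosome 3, 95434388 to 95497240, plus strand), varied least, by 1.54 times from the lowest to the highest sample. It was 134, 131 and 157 CPM in WT and 149, 150 and 167 CPM in cKO CD103+CD11b- DCs. In CD103-CD11b+ DCs it was 142, 174 and 163 CPM in WT and 168, 187 and 201 CPM in cKO mice. The 3 cKO CD103-CD11b+ samples lay above the 3 cKO CD103+CD11b- samples, yet the difference of 0.26 (SE 0.12, adjusted p = 0.165, edgeR) did not pass. Of all genes tested, 18.4% were higher without overlap in this comparison.

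Ahrr, the repressor (chromosome 13, 74211118 to 74292331, minus strand), was 75.2, 71.4 and 61.1 CPM in WT CD103+CD11b- DCs and 67.9, 62.7 and 34.8 CPM in their cKO counterparts. In the CD103-CD11b+ subset it was 52.7, 71.0 and 22.4 CPM in WT and 55.7, 92.3 and 34.7 CPM in cKO mice. Here the sample numbered 3 was the lowest of each group, and all groups overlapped. Neither genotype difference passed (-0.32, adjusted p = 0.903, and 0.34, adjusted p = 0.719, edgeR).

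Tiparp (chromosome 3, 65528410 to 65555518, plus strand) encodes an ADP-ribosyltransferase that restrains the receptor. It was 83.8, 103 and 140 CPM in WT and 98.5, 119 and 138 CPM in cKO CD103+CD11b- DCs. In CD103-CD11b+ DCs it was 117, 128 and 213 CPM in WT and 150, 207 and 347 CPM in cKO mice. The cKO CD103-CD11b+ samples were above all 3 cKO CD103+CD11b- samples, while in WT mice the subsets overlapped. The subset difference in cKO mice was 0.98 on the log2 scale (SE 0.32, adjusted p = 0.0617, edgeR). It passed with a block on the replicate within each genotype, which pairs same-numbered samples of the 2 subsets (0.91, adjusted p = 0.00408, edgeR). So it did with the number as a block over all 4 groups (0.91, adjusted p = 0.00154). It also passed without cKO CD103-CD11b+ replicate 1 (1.18, adjusted p = 0.0367). The cKO against WT difference was 0.12 (SE 0.32, adjusted p = 0.981) in CD103+CD11b- and 0.61 (SE 0.32, adjusted p = 0.349) in CD103-CD11b+ DCs. With the number as a block over all 4 groups, the CD103-CD11b+ difference was called (0.59, adjusted p = 0.0433, edgeR). The subset difference in WT mice was called with that block too (0.47, adjusted p = 0.0326).

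The 4 genes Ahr, Tiparp, Ahrr and Kynu followed the replicate number in every group. Ahr and Tiparp were highest in replicate 3 and lowest in replicate 1 in 4 of 4 groups, and Ahrr and Kynu were lowest in replicate 3 in 4 of 4 groups. Over all 20580 genes tested, 6.81% were highest and 8.03% lowest in replicate 3 of each group, and 1.76% were lowest in replicate 1. Replicate 3 exceeded the mean of replicates 1 and 2 of its group in log2 CPM by 0.43 to 1.24 for Ahr and by 0.35 to 0.98 for Tiparp. For Ahrr the same difference ran from -1.43 to -0.26. The pattern was noticed after the values were seen, and what the samples of 1 number share is not stated in the labels.

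**Figure D2:**
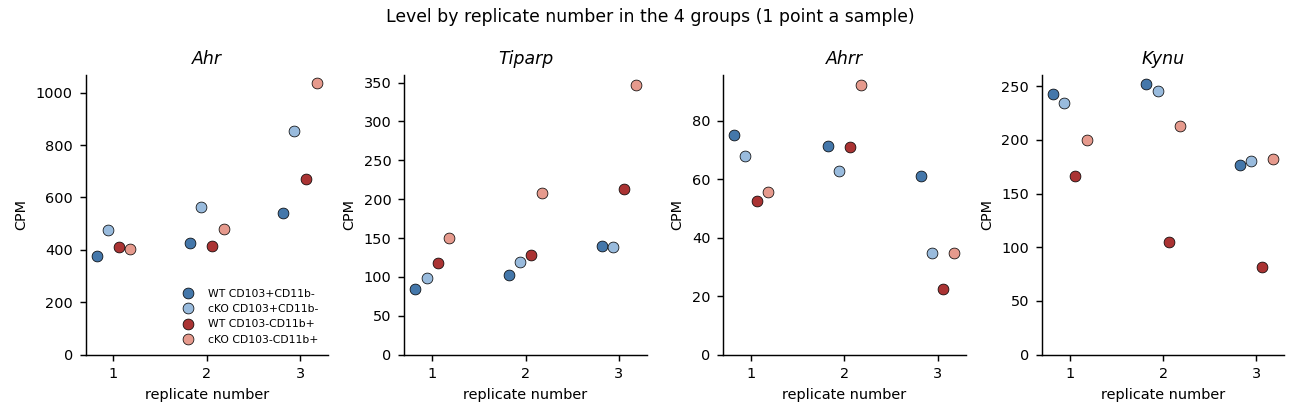
CPM of Ahr, Tiparp, Ahrr and Kynu on linear axes against the replicate number from the labels, with 1 point a sample and 1 colour a group. Ahr and Tiparp are highest and Ahrr and Kynu lowest at number 3 in all 4 groups.

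Cyp1b1 (chromosome 17, 79701537 to 79715061, minus strand), a cytochrome P450 that oxidises AhR ligands and steroids, separated the subsets most of the 9 tested members in WT mice. It was 0.342, 1.60 and 1.78 CPM in WT CD103+CD11b- DCs, from 1, 7 and 11 reads, and 16.2, 109 and 12.5 CPM in WT CD103-CD11b+ DCs. In cKO mice it was 2.66, 10.3 and 0.391 CPM in CD103+CD11b- and 22.9, 57.8 and 7.14 CPM in CD103-CD11b+ DCs. The subsets did not overlap in WT mice and overlapped in cKO mice, and 21.4% of all genes were higher without overlap in WT mice. Replicate 2 was the highest in 3 of 4 groups. In WT mice the CD103-CD11b+ DCs were 33.2-fold higher (log2 5.05, SE 1.23, adjusted p = 0.0185, edgeR). The call was lost without WT CD103-CD11b+ replicate 2 (3.37, adjusted p = 0.0626), without WT CD103+CD11b- replicate 1 (4.72, adjusted p = 0.0708) and without WT CD103+CD11b- replicate 2 (5.15, adjusted p = 0.0696). In cKO mice the difference was 2.68 (SE 1.07, adjusted p = 0.113), and passed with the block within genotypes (2.87, adjusted p = 0.00807) or over all groups (2.84, adjusted p = 0.0116).

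Between genotypes Cyp1b1 did not differ by the test, at 1.76 (SE 1.24, adjusted p = 0.754, edgeR) in CD103+CD11b- and -0.62 (SE 0.96, adjusted p = 0.782) in CD103-CD11b+ DCs. The second value became 1.04 without WT CD103-CD11b+ replicate 2. Genes of other cells moved with Cyp1b1 between the subsets, with 2 of 6 stromal and endothelial genes called higher in each genotype and 7 of 8 (WT) or 6 of 8 (cKO) macrophage genes. The summed level of the stromal and endothelial genes was 274, 193 and 605 CPM in WT CD103+CD11b- DCs and 804, 2010 and 1798 CPM in WT CD103-CD11b+ DCs. It was 108, 366 and 119 CPM and 820, 1720 and 347 CPM in the respective cKO samples, and none of these 6 genes was at 0 in all samples. A large part of the WT sums came from 1 gene, Pecam1. It was 177, 121 and 166 CPM in WT CD103+CD11b- and 330, 727 and 650 CPM in WT CD103-CD11b+ DCs. The genes did not share 1 order over the samples. In WT CD103-CD11b+ DCs Pdgfra was 7.24, 73.3 and 27.9 CPM, highest in replicate 2 like Cyp1b1, while Col3a1 was 156, 392 and 414 CPM, highest in replicate 3, and Dcn was 22.1, 13.7 and 45.7 CPM, lowest in replicate 2. The gate named above would leave out stromal cells and CD64+ macrophages, and the part of such cells in the Cyp1b1 levels was not tested.

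Cyp1a1, the classic target of the receptor, was counted 0, 1 and 0 times in WT CD103+CD11b- DCs and 79, 59 and 6 times in WT CD103-CD11b+ DCs, or 15.5, 19.7 and 1.75 CPM in the latter. The subset difference in WT mice passed (adjusted p = 0.00872, edgeR). In cKO mice it was counted 1, 1 and 0 times in CD103+CD11b- and 8, 20 and 0 times in CD103-CD11b+ DCs (adjusted p = 0.0986, 0.0151 with the block within genotypes and 0.00663 with the block over all groups). In CD103-CD11b+ DCs the cKO minus WT difference was -2.36 (SE 0.96, adjusted p = 0.237). Of 7 epithelial genes, 3 (Vil1, Krt8 and Krt18) were called higher in WT CD103-CD11b+ than in WT CD103+CD11b- DCs (edgeR). The 7 genes summed to 234, 179 and 83.4 CPM in WT and 39.9, 103 and 18.4 CPM in cKO CD103+CD11b- DCs, and to 314, 174 and 211 CPM in WT and 50.7, 38.8 and 70.4 CPM in cKO CD103-CD11b+ DCs. Cdh1, which DCs also express, made up most of the sum in WT CD103+CD11b- DCs, at 217, 166 and 67.7 CPM. The median log2 difference of the 7 genes, cKO minus WT, was 1.31 in CD103+CD11b- and -1.75 in CD103-CD11b+ DCs. The gate would leave out epithelial cells, and their part in the Cyp1a1 counts was not tested.

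**Figure D3:**
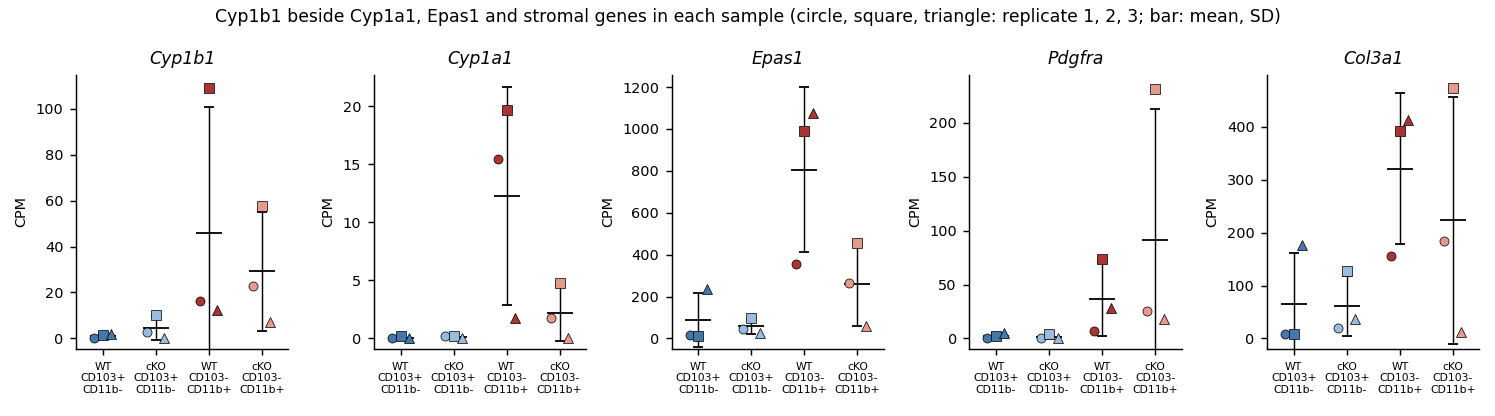
CPM on linear axes of Cyp1b1, of Cyp1a1, of Epas1 (a hypoxia factor of endothelium that also pairs with ARNT) and of the stromal genes Pdgfra and Col3a1 in the 12 samples, with circles, squares and triangles for replicates 1, 2 and 3 and a bar for the mean and SD. All 5 genes have higher group means in CD103-CD11b+ DCs, and in that subset Cyp1b1 and Pdgfra peak in the replicates numbered 2, as Col3a1 does in cKO but not in WT mice.

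Ido1 (chromosome 8, 24584136 to 24597009, minus strand), the inducible dioxygenase that starts kynurenine synthesis, was low, with 2 to 59 reads per sample. It was 2.05, 4.12 and 6.31 CPM in WT and 0.666, 0.488 and 2.35 CPM in cKO CD103+CD11b- DCs. In CD103-CD11b+ DCs it was 6.66, 9.33 and 8.44 CPM in WT and 10.6, 14.04 and 1.53 CPM in cKO mice. The 3 WT CD103-CD11b+ samples were above the 3 WT CD103+CD11b- samples, and cKO CD103-CD11b+ replicate 3, at 3 reads, fell among the cKO CD103+CD11b- samples. In cKO mice the CD103-CD11b+ DCs were 8.17-fold higher (log2 3.03, SE 0.78, adjusted p = 0.0228, edgeR). Leaving out cKO CD103-CD11b+ replicate 1 or 2, or cKO CD103+CD11b- replicate 1 or 2, ended the call, with differences of 2.83, 2.54, 2.73 and 2.65 and adjusted p-values of 0.0621, 0.0803, 0.0995 and 0.0864. In this comparison 8 of 8 type 2 DC, 6 of 8 macrophage and 3 of 6 B cell genes were called higher too. So were 2 of 6 stromal and endothelial, 2 of 8 T cell and innate lymphoid and 1 of 4 plasma cell genes. The type 2 DC genes include Itgam, which encodes CD11b, on which the cells were sorted. Called lower were 7 of 8 type 1 DC, 1 of 4 plasmacytoid DC and 1 of 6 pan-DC genes. The part of all these in the Ido1 levels was not tested.

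In WT mice the subset difference of Ido1 was 0.93 (SE 0.68, adjusted p = 0.369, edgeR). The cKO minus WT difference was -1.96 (SE 0.78, adjusted p = 0.376) in CD103+CD11b- DCs and 0.14 (SE 0.66, adjusted p = 0.943) in CD103-CD11b+ DCs. The difference between these genotype effects was 2.10 (SE 1.02, adjusted p = 0.495), which did not pass. The markers of type 2 conventional DCs, whose levels are given with Kmo, were also lower in the cKO CD103+CD11b- samples, and their part was not tested.

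Ido2, the less active relative encoded beside Ido1 (chromosome 8, 24531892 to 24576333), never exceeded 4 reads and was not tested. It gave 4, 4 and 1 reads in WT and 0, 0 and 0 reads in cKO CD103+CD11b- DCs, and 4, 2 and 2 reads in WT and 2, 3 and 0 reads in cKO CD103-CD11b+ DCs. A count of 0 allows up to 3 reads, or 0.666 to 1.17 CPM in the cKO CD103+CD11b- samples, for counting error only.

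Kmo (chromosome 1, 175620381 to 175662116, plus strand), the mitochondrial hydroxylase that turns kynurenine into 3-hydroxykynurenine, had the smallest unadjusted p of the tested members between genotypes without a replicate block. It was 365, 325 and 208 CPM in WT CD103+CD11b- DCs and 175, 165 and 159 CPM in cKO CD103+CD11b- DCs. In CD103-CD11b+ DCs it was 345, 245 and 245 CPM in WT and 250, 210 and 281 CPM in cKO mice. All 3 cKO CD103+CD11b- samples lay below all other samples, whereas the genotypes overlapped in CD103-CD11b+ DCs. The level in cKO CD103+CD11b- DCs was 1.80-fold lower, at -0.85 on the log2 scale (SE 0.21, unadjusted p = 0.00183, adjusted p = 0.0968, edgeR), which misses the threshold. Without WT CD103+CD11b- replicate 3 it passed (-1.05, adjusted p = 0.0236). Of all genes tested, 10.6% had their 3 cKO samples below their 3 WT samples in this subset.

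In CD103-CD11b+ DCs the genotype difference of Kmo was -0.17 (SE 0.21, adjusted p = 0.699, edgeR), and the difference between the effects was 0.67 (SE 0.29, adjusted p = 0.423). Between the subsets it was -0.10 (adjusted p = 0.775) in WT and 0.57 (SE 0.21, adjusted p = 0.0852) in cKO mice. The last was 0.58 (adjusted p = 0.0558) with the replicate number as a block over all 4 groups, and 0.56 (adjusted p = 0.0273) with a block within each genotype, which passed. Between genotypes in CD103+CD11b- DCs, markers of type 2 conventional DCs moved in the same direction as Kmo. Their summed level over 8 genes was 628, 474 and 394 CPM in WT and 120, 140 and 89.2 CPM in cKO CD103+CD11b- DCs, and 5 of the 8 (Sirpa, Irf4, Cd209a, Clec4a4 and Epcam) fell. Another cDC2 gene, Itgam, went the other way, at 4.79, 3.66 and 4.53 CPM in WT and 5.99, 10.98 and 7.43 CPM in cKO samples (adjusted p = 0.239). The 4 plasmacytoid DC genes summed to 1836, 1539 and 813 CPM in WT and 608, 703 and 372 CPM in cKO CD103+CD11b- DCs, without overlap, with a median log2 difference of -1.21 and none called by edgeR. T cell and innate lymphoid genes summed to 104 to 205 CPM in these WT and 33.2 to 67.6 CPM in these cKO samples. Il7r made up most of the WT sum (191, 169 and 64.2 CPM, against 33.7, 50.03 and 12.1 CPM in cKO samples), whereas Cd3e was 2.39, 0.229 and 14.1 CPM in WT and 0.444, 4.88 and 14.5 CPM in cKO samples. The gate would leave out T cells that lack CD11c or MHC-II, and the part of these cells in the Kmo difference was not tested.

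Kynu (chromosome 2, 43555329 to 43682715, plus strand) encodes kynureninase, which cleaves kynurenine and 3-hydroxykynurenine. It was 242, 252 and 176 CPM in WT and 235, 246 and 180 CPM in cKO CD103+CD11b- DCs, with overlapping groups. In CD103-CD11b+ DCs it was 166, 105 and 81.4 CPM in WT and 200, 213 and 182 CPM in cKO mice. The WT CD103-CD11b+ DCs were thus the low group, below all samples of the other 3 groups, and 16.7% of all genes lay below the CD103+CD11b- DCs without overlap in WT mice. In WT mice the CD103-CD11b+ DCs were 1.90-fold lower than the CD103+CD11b- DCs (log2 -0.92, SE 0.24, adjusted p = 0.0236, edgeR). In cKO mice the subset difference was -0.15 (SE 0.24, adjusted p = 0.706).

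The WT call for Kynu was lost without WT CD103-CD11b+ replicate 2 or 3 (-0.89 and -0.76, adjusted p = 0.0693 and 0.0552, edgeR) and without WT CD103+CD11b- replicate 1 or 2 (-0.86 and -0.87, adjusted p = 0.0778 and 0.0800). The genotype difference was 0.75 (SE 0.24, unadjusted p = 0.00933, adjusted p = 0.139) in CD103-CD11b+ DCs, with no overlap, and -0.02 (SE 0.24, adjusted p = 1) in CD103+CD11b- DCs. In CD103-CD11b+ DCs it passed without WT CD103-CD11b+ replicate 1 (1.11, adjusted p = 0.0233, edgeR) and with the block over all 4 groups (0.79, adjusted p = 0.0340). The difference between the genotype effects was 0.77 (SE 0.34, adjusted p = 0.423). Of all genes tested, 9.75% had their 3 cKO samples above their 3 WT samples in CD103-CD11b+ DCs. Among the marker lists, 7 of 8 macrophage, 4 of 8 type 2 DC, 3 of 7 epithelial and 2 of 6 stromal and endothelial genes were higher in CD103-CD11b+ DCs between the WT subsets. Lower there, like Kynu, were 7 of 8 type 1 DC genes (median log2 difference -2.54) and 2 of 4 plasmacytoid DC genes (median -1.24). Between genotypes in CD103-CD11b+ DCs, 1 of 6 B cell genes (Ms4a1) was higher, with a median log2 difference of 1.55 over the list and a summed level of 106 to 277 CPM in WT and 73.9 to 469 CPM in cKO samples. There 1 of 8 macrophage genes (Adgre1, 29.7 to 76.0 CPM in WT and 140 to 237 CPM in cKO samples) and 1 of 8 type 2 DC genes (Clec4a4) were higher too, 1 of 8 type 1 DC genes (Itgae, which encodes CD103) was lower, and the 10 mature DC genes had a median of 0.75. Their part in the Kynu levels was not tested.

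Il4i1 (chromosome 7, 44816387 to 44840809, plus strand) was counted 1 to 5 times in every sample. Of its 4080 exonic bases, 86.3% are shared with exons of other genes, 3423 of them with Tbc1d17 on the opposite strand. Counting without strand leaves out reads that fall on 2 genes, so that only reads on the other 560 bases could be assigned. The low count therefore gives no level of Il4i1 mRNA, and its differences, none of which passed, are not read as differences of that mRNA.

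All members but Ido2 could be tested, 9 of 10, and a gene was called at an adjusted p under 0.05 with a fold over 1.3. In CD103+CD11b- DCs 0 of 9 were called between genotypes by edgeR, against 1.02% of all genes (0.224% higher and 0.797% lower). There 2 of 9 had an unadjusted p under 0.05 (Ido1 and Kmo, both lower), against 10.5% of all genes, and DESeq2 called 1 (Kmo), against 3.18%. In CD103-CD11b+ DCs 0 of 9 were called, against 1.61% of all genes (1.11% higher and 0.5% lower), with 1 at an unadjusted p under 0.05 (Kynu), against 17.4% of all genes. DESeq2 called Kynu too, against 5.52% of all genes. For the difference of the genotype effects 0 of 9 were called by edgeR and 0 by DESeq2, against 0.651% of all genes (0.554% higher and 0.0972% lower), with 2 (Kmo and Kynu) at an unadjusted p under 0.05, against 11.1%, while DESeq2 called 2.44% of all genes. Over the 8 tested members other than Il4i1, the median log2 difference cKO minus WT was 0.0477 against -0.0169 over all genes in CD103+CD11b- DCs, and 0.28 against -0.0610 in CD103-CD11b+ DCs.

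**Figure D4:**
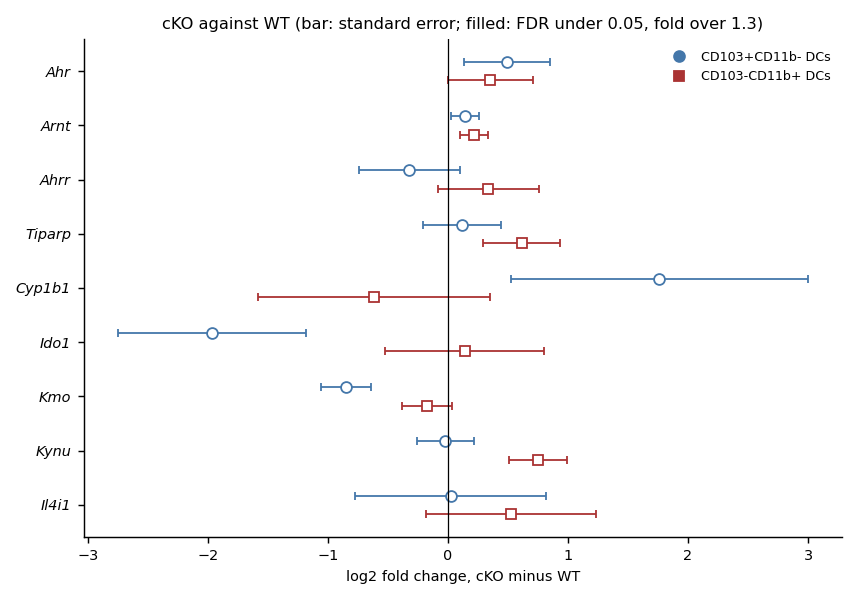
Log2 fold change cKO minus WT for the 9 tested genes in CD103+CD11b- DCs (circles) and CD103-CD11b+ DCs (squares), with bars of 1 standard error; filled symbols would mark genes called. No symbol is filled, and Kmo (-0.85) in CD103+CD11b- and Kynu (0.75) in CD103-CD11b+ DCs stand farthest from 0 relative to their standard errors.

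Between subsets in WT mice, Cyp1b1 was called higher in CD103-CD11b+ DCs (1 of 9, against 11.8% of all genes) and Kynu lower (1 of 9, against 7% of all genes), 2 of 9 against 18.8% of all genes in either direction. In cKO mice 1 of 9 was called higher (Ido1), against 9.26% of all genes, and 0 of 9 lower, against 6.81%, or 16.1% in either direction. With the block within genotypes 4 of 9 were higher in cKO mice (Ido1, Tiparp, Cyp1b1 and Kmo), against 12.9% of all genes, and 0 of 9 lower, against 8.6%, or 21.5% in either direction. With the block over all groups 3 of 9 were higher (without Kmo), against 12% of all genes, and 0 of 9 lower, against 9.01%, or 21% in either direction. Comparisons that share a group share its samples, so their values are given side by side only.

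**Figure D5:**
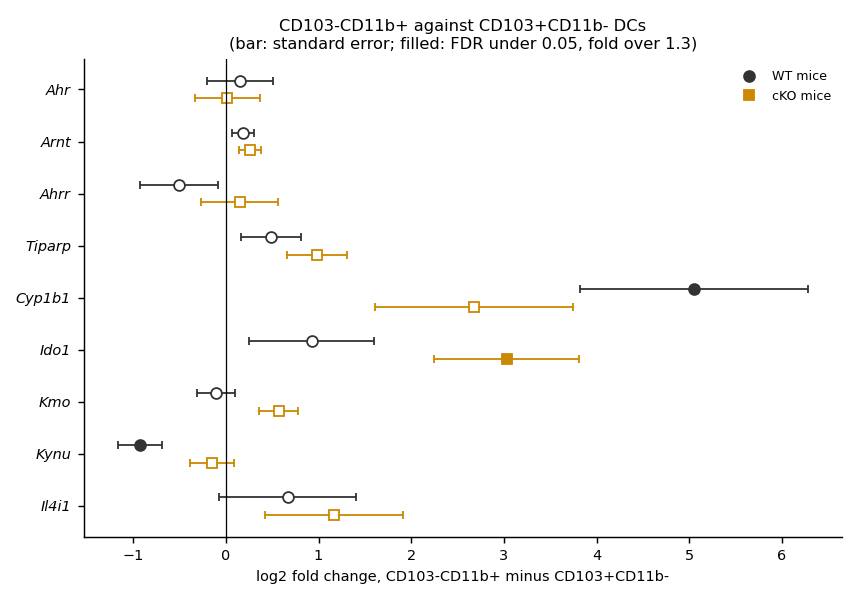
Log2 fold change CD103-CD11b+ minus CD103+CD11b- for the 9 tested genes in WT mice (circles) and cKO mice (squares), with bars of 1 standard error; filled symbols mark genes called. Filled are Cyp1b1 (5.05) and Kynu (-0.92) in WT mice and Ido1 (3.03) in cKO mice, from the fit without a replicate block. With the block within genotypes Ido1, Tiparp, Cyp1b1 and Kmo were called in cKO mice, and Cyp1b1, Tiparp and Kynu in WT mice.

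Few other genes of the pathway were called between genotypes by edgeR. The counts below are to be read against all genes, of which 10.5% in CD103+CD11b- and 17.4% in CD103-CD11b+ DCs had an unadjusted p under 0.05, and 3.18% and 5.52% were called by DESeq2. Of 11 chaperones and partners of the receptor (among them Hsp90ab1 and Hif1a), 0 were called in either subset, with 2 in CD103+CD11b- and 5 in CD103-CD11b+ DCs at an unadjusted p under 0.05 and 0 and 1 (Hif1a) called by DESeq2. Of 7 tested AhR battery genes 0 were called by edgeR or DESeq2, with 0 and 1 at an unadjusted p under 0.05. Of 7 tested further kynurenine enzymes 0 were called, with 2 and 3 at an unadjusted p under 0.05, and DESeq2 called 1 (Kyat3) in each subset. Kyat3, an aminotransferase that makes kynurenic acid, was lower in the cKO samples of both subsets. It was 16.8, 13.3 and 13.3 CPM in WT and 5.55, 3.66 and 8.21 CPM in cKO CD103+CD11b- DCs (log2 -1.33, adjusted p = 0.0668, edgeR). In CD103-CD11b+ DCs it was 18.2, 17.7 and 16.0 CPM in WT and 5.84, 8.57 and 6.63 CPM in cKO mice (log2 -1.30, adjusted p = 0.0543, edgeR). Of all genes tested, 10.6% were lower without overlap, like Kyat3, in cKO CD103+CD11b- DCs.

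Gpr35, a receptor that responds to kynurenic acid, fell in cKO CD103+CD11b- DCs, from 143, 101 and 89.2 CPM to 51.9, 47.8 and 36.8 CPM (log2 -1.28, SE 0.24, adjusted p = 0.0345, edgeR). It was the 1 gene called of 5 tested for kynurenine sensing and amino acid stress. In this comparison its levels moved with the same type 2 DC markers as Kmo, whose part was not tested. The call ended, with an adjusted p of 0.0504 to 0.145 and a difference of -1.38 to -1.06, when any 1 of 7 samples was left out: each cKO CD103+CD11b- sample, WT CD103+CD11b- replicate 1 or 2, or cKO CD103-CD11b+ replicate 1 or 2. In CD103-CD11b+ DCs Gpr35 was 140, 84.3 and 85.5 CPM in WT and 112, 98.98 and 118 CPM in cKO mice (log2 0.08, adjusted p = 0.891). The difference between the 2 effects did not pass (1.36, SE 0.33, adjusted p = 0.122). With the replicate block over all groups, 1 of the 5 list genes was called higher for this difference. Of the 8 type 2 DC markers, 4 were called higher in WT CD103-CD11b+ than in WT CD103+CD11b- DCs, where Gpr35 was not called. In cKO mice 8 of 8 were called higher there, and so was Gpr35.

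Interferon-gamma induces Ido1 and Kynu in many cells, and 10 of its response genes were examined. In CD103+CD11b- DCs 0 of 10 were called between genotypes by edgeR, with 6 at an unadjusted p under 0.05 and 3 called by DESeq2. Of 9 tested genes of tryptophan transport and other tryptophan use 0 were called by edgeR in either subset, with 3 in CD103+CD11b- and 1 in CD103-CD11b+ DCs at an unadjusted p under 0.05 and 1 (Slc7a8) and 0 by DESeq2. Of 10 mature DC genes 0 were called by edgeR, with 2 and 5 at an unadjusted p under 0.05 and 1 and 4 by DESeq2.

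Between subsets, where 18.8% of all genes were called in WT and 16.1% in cKO mice, the list genes called were these. Slc7a8, an amino acid transporter, was lower in CD103-CD11b+ DCs in both genotypes (log2 -2.85, adjusted p = 4.62e-05, in WT and -3.12, adjusted p = 1.17e-05, in cKO mice, edgeR). The interferon-induced GTPases Gbp2 (2.06 and 1.81) and Gbp4 (2.32 and 2.90) were higher and the chemokine Cxcl9 (-1.43 and -1.44) lower there in WT and in cKO mice. Wars, which charges tRNA with tryptophan, was higher in WT mice (1.16, adjusted p = 0.0138). Got2 was lower (-0.92) and Kyat1 higher (1.05) in WT mice, both aminotransferases that act on kynurenine. Qprt, which makes nicotinic acid mononucleotide from quinolinic acid, was counted 1, 0 and 1 times in cKO CD103+CD11b- and 12, 22 and 2 times in cKO CD103-CD11b+ DCs (adjusted p = 0.00983).

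In WT mice further genes higher in CD103-CD11b+ DCs were Gstm1 (2.62), a glutathione transferase, Arntl (0.91), the clock relative of Arnt, Maoa (3.01), Irf1 (0.73) and Socs2 (1.86), while Cacnb3 was lower (-2.15). In cKO mice Slc36a4 (0.62) and Gpr35 (1.26) were higher and Socs1 (-1.73) lower. With the replicate block over all groups, in cKO mice 2 AhR battery genes were higher in place of 0, 1 of the other kynurenine enzymes was lower in place of 0, 3 interferon-gamma genes were higher in place of 2, and of the mature DC genes 1 was higher and 2 were lower in place of 0. Cyp1a2, Gsta2 and Aadat had no read in any sample.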

How the data were processed

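The deposited files hold raw read counts per gene for each of the 12 samples, with no pooling. Per the study's methods and the submitters' processing notes, the authors made RamDA-seq libraries from sorted cells, trimmed reads with Trim Galore, mapped them to mm10 with STAR 2.7, removed low-quality and duplicated reads, and counted with HTSeq without strand on an Ensembl GRCm38 annotation. The 5 HTSeq summary lines were left out; 59.7 to 66.1% of reads fell on no feature and 1.21 to 1.52% were ambiguous.

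Identifiers were matched to GENCODE M21 (99.8%). The 20580 genes that reached 5 counts in any sample were fitted over all 12 samples with edgeR 4.0.16 (R 4.3.3), TMM scaling and the quasi-likelihood test, with Benjamini-Hochberg adjustment over all of them. Genes were called at an adjusted p under 0.05 and a fold over 1.3. CPM uses TMM-scaled library sizes. The step was tested on simulated data.

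The labels number the replicates 1 to 3 in each group. Deviations from the group means of same-numbered samples correlated at 0.112 to 0.354 between the cKO groups, so the number was taken to pair those in an alternative fit. They also correlated at 0.124 to 0.217 between cKO CD103+CD11b- and WT CD103-CD11b+ samples, whose genotypes differ. The correlations therefore do not show that same-numbered samples share a mouse. The block within genotypes pairs the WT groups by number too. Values are from the fit without a block unless an alternative is named. DESeq2 1.42.0, other filters, RLE scaling, the replicate block, 6 samples only and leaving out each sample were alternatives. All 10 members are named, and of the pathway lists the genes called between genotypes, apart from results not reported here, and up to 4 per list between subsets. Kyat3, which missed the threshold, was chosen after its values were seen. The members and lists were chosen with earlier results of these data known. Ddit3 matched 2 identifiers and was left out. Some results on pathway list genes are not reported here.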

Additional observations from a re-analysis of the deposited data

How the results depend on the processing

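Ido1 and Ido2 rest on few reads, and most exons of Il4i1 are shared with other genes. Of the 9 tested members, 0 were called in CD103+CD11b- DCs between genotypes, but 1 (Kmo) with DESeq2 or no count filter, and 0 to 1 when single samples were left out. In CD103-CD11b+ DCs 0 became 1 with DESeq2, 2 (Tiparp 0.59 and Kynu 0.79) with the replicate block, and 0 to 1 without single samples. For the difference of effects it was 0 throughout. For subsets in WT mice 2 became 1 with 6 samples only or with 5 counts asked of every sample, which leaves Cyp1b1 out, and 0 to 2 without single samples. With the block Tiparp (0.47) was called too. For subsets in cKO mice 1 became 0 with 6 samples only, 3 (Ido1, Tiparp and Cyp1b1) with DESeq2, 2 (Ido1 and Tiparp) without a filter, 3 with the replicate block, 4 with the block within genotypes, 2 with replicates 1 and 2 only (chosen after seeing the data), and 0 to 2 without single samples. With 5 counts asked of every sample it was 1, but Tiparp (adjusted p = 0.0371), since Ido1 was left out. Without cKO CD103-CD11b+ replicate 1 Tiparp was called and Ido1 was not. With the block over all groups, which called 522 genes in CD103+CD11b- and 849 in CD103-CD11b+ DCs between genotypes in place of 210 and 331, the list genes Hsp90aa1, Hif1a, Nfe2l2 and Cacnb3 (higher) and Cyp1a1 and Kyat3 (lower) were newly called in cKO CD103-CD11b+ DCs, and Irgm1 and Socs1 (higher) in cKO CD103+CD11b- DCs. The labels give same-numbered samples of different groups no link but the number, in the cKO subsets as in the other comparisons.

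Some uncalled differences changed sign, and the cause was not tested. Kynu between genotypes in CD103+CD11b- DCs was 0.0174 with DESeq2, 0.0172 with RLE and 0.0123 with replicates 1 and 2 only. Arnt in the difference of effects was -0.0241 with replicates 1 and 2 only. Ahr between subsets in cKO mice was -0.0220 with 6 samples only, -0.0087 with filterByExpr, -0.0495 with the block, -0.0661 with the block within genotypes and -0.28 with replicates 1 and 2 only. Without single samples the log2 differences that changed sign spanned, in CD103+CD11b- DCs between genotypes, -0.0379 to 0.34 for Tiparp, -0.17 to 0.10 for Kynu and -0.0789 to 0.12 for Il4i1. In CD103-CD11b+ DCs they spanned -0.18 to 0.64 for Ahr, -0.0918 to 0.71 for Ahrr, -1.56 to 1.04 for Cyp1b1, -0.35 to 0.60 for Ido1, -0.28 to 0.0345 for Kmo and -0.0394 to 0.83 for Il4i1. In the difference of effects they spanned -0.67 to 0.14 for Ahr and -0.0618 to 0.79 for Il4i1. Between subsets they spanned -0.16 to 0.25 for Ahr and -0.37 to 0.0642 for Kmo in WT mice, and -0.52 to 0.30 for Ahr and -0.28 to 0.42 for Ahrr in cKO mice.

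Over all genes, 210 calls between genotypes in CD103+CD11b- DCs became 655 with DESeq2, 320 without a filter and 522 with the block. In CD103-CD11b+ DCs 331 became 573 with 5 counts in every sample, 27 with 6 samples only, 1136 with DESeq2, 849 with the block and 190 with replicates 1 and 2 only. For the difference of effects 134 became 502 with DESeq2, 205 without a filter, 330 with the block and 44 with replicates 1 and 2 only. Without single samples the 5 counts ran over 46 to 241, 121 to 517, 29 to 210, 1410 to 4373 and 2124 to 3638.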

Other observations

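Over the 12 samples, the genes whose log2 CPM correlated most with each member tested other than Il4i1, among 10684 genes with a mean of 10 CPM or more, were these. They are descriptions over samples that share groups, replicate numbers and depth. Fbxw11 (Pearson r 0.985), Kpna4 (0.960) and Slc3a2 (0.955) were nearest to Ahr. Chp1 (0.977), Maff (0.973) and Plcxd2 (0.970) were nearest to Tiparp. Srgap1 (0.980), Glis2 (0.968) and Il1rl1 (0.967) were nearest to Cyp1b1, and B4galt5 (0.961), Cd7 (0.942) and Colgalt1 (0.933) to Kmo. Dnajb14 (0.968), Gm37738 (0.958) and Gsap (0.956) were nearest to Kynu. Slc38a7 (0.947), Gpr107 (0.932) and Gpr22 (0.919) were nearest to Ahrr, Sat1 (0.937), Phlpp1 (0.926) and Simc1 (0.920) to Arnt, and Gnptg (0.926), Ipmk (0.906) and Upf3b (0.902) to Ido1.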
